A study of Mus musculus with 6 samples.

Results

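A set of 9 genes of platelet-derived growth factor (PDGF) signalling and of pericytes, the cells that wrap capillaries, were followed in the ventricles of mouse embryos labelled as lacking ERRa and ERRg (genes Esrra and Esrrg) in the heart. They comprise the ligand genes Pdgfa, Pdgfb, Pdgfc and Pdgfd, the receptor genes Pdgfra and Pdgfrb, and the pericyte-associated genes Rgs5, Cspg4 and Notch3. They were taken by symbol from the deposited transcript table, which held all 9 among 19245 gene symbols, and all 9 passed the filter on low counts that left 14290 genes for testing. The 9 genes were chosen with earlier results of the same knockout against wild type contrast known, so their values are described here without a test.

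The KO group had 3 libraries from Nkx2.5-Cre positive embryos with floxed ERRa/g alleles. The WT group had 3 libraries from Nkx2.5-Cre negative embryos that carried floxed alleles as well, so that Cre was present in KO embryos alone. All were C57BL/6 embryos at embryonic day 17.5, both ventricles were taken, and each library pooled 2 hearts. The Nkx2-5 promoter that drives Cre is active in cardiac progenitors and the cardiomyocytes that descend from them, while pericytes and fibroblasts of the ventricle come largely from other lineages. Nothing in the labels says how far Cre acted in cells other than cardiomyocytes.

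Signalling by PDGF runs between cells. PDGF-A and PDGF-C dimers act mainly through the receptor PDGFRα on fibroblasts and their mesenchymal progenitors, whereas PDGF-B from endothelial cells acts through PDGFRβ on pericytes and vascular smooth muscle cells and is required to recruit them to growing capillaries. PDGF-D also binds PDGFRβ. In the developing heart both receptors are known from the epicardium and the cells it gives rise to, among them cardiac fibroblasts and the mural cells of coronary vessels. RGS5, a regulator of G protein signalling, NG2, the proteoglycan encoded by Cspg4, and the Notch receptor NOTCH3 are used as markers of mural cells, although none of these is made by pericytes alone.

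Of the 9 genes, Rgs5 lay furthest below and Pdgfc and Pdgfra furthest above the WT libraries, while Notch3 and Cspg4 differed little. The sequence just before the annotated start is shown for Rgs5, for Pdgfra and, as a gene of nearly equal level in both groups, for Notch3. Each is 250 bases of RefSeq sequence on GRCm38.p6, read 5′ to 3′ on the strand of the gene and ending at the base before a start annotated by RefSeq. For Rgs5 and Pdgfra that start is the one of the deposited table, and for Notch3 the window ends 38 bases further upstream than the start there. The Rgs5 window is chr1:169655251-169655500 on the plus strand, the Pdgfra window is chr5:75152001-75152250 on the plus strand and the Notch3 window is chr17:32166891-32167140 on the minus strand. Capitals mark the GC box GGGCGG or its reverse complement.
Rgs5: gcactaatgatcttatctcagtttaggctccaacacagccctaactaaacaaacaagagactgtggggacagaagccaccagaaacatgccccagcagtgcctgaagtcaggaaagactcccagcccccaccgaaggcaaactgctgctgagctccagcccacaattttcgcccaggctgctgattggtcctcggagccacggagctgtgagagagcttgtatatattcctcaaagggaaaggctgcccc
Pdgfra: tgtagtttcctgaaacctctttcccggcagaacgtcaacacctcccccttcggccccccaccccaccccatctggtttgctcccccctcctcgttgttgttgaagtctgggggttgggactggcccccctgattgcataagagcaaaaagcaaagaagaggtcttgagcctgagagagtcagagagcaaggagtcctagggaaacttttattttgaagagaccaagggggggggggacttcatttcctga
Notch3: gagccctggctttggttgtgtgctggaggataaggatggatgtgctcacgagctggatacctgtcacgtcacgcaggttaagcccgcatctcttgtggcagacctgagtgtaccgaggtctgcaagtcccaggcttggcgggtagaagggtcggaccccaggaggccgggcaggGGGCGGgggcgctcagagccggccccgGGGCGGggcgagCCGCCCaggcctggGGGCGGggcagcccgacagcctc
The Notch3 window held 4 GC boxes, and the other windows shown held none. A GC box was found on either strand in 32.7% of 32851 promoter windows of the same length. The Notch3 window had 68.8% G and C bases, against 53.6% for Rgs5 and 54.4% for Pdgfra and a median of 52.4% over all windows. Estrogen-related receptors bind extended half-sites, and the half-site AAGGTCA, searched on both strands, was in 4.08% of all windows. It was in none of the windows examined for 7 of the 9 genes, which left out Pdgfb and Pdgfrb. Neither a match nor its absence in 250 bases says whether a factor binds the gene.

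Sequencing depth ran over 39621555 to 86895519 reads per library, of which 12807218 to 32663845 were counted to genes, most in KO replicate 1. Levels are in CPM, counts divided by library size after TMM scaling, and 3 counts stand for 0.0918 to 0.234 CPM. The summed Y-linked level, before TMM scaling, was near 0 in WT replicates 1 and 3 (0.0567 and 0.167 CPM) and 112 to 324 CPM in the other libraries. Xist was near 0 in KO replicate 1 (0.949 CPM), 2352 and 2372 CPM in WT replicates 1 and 3, and 1170 to 1263 CPM in the others. These levels were thus not balanced between KO and WT libraries, and the part of this in the results was not tested. Counts and log2 fold changes below that move by more than 1.5 times without these 3 libraries are given both ways. That setting leaves 1 WT library, whose spread is then taken to be that of the KO libraries. Exonic reads made up 37.6% to 40.6% of KO libraries, against 35.5% to 37.1% of WT libraries, and intergenic reads 16.4% to 22.4%, against 23.3% to 27.1%. The part of these differences in the results below was not tested. Esrra was lower in KO libraries, with 42.9 ± 1.63 CPM against 75.8 ± 6.56 CPM in WT libraries (SD, n = 3 each, adjusted p 3.67e-07 by edgeR), but Esrrg was higher, with 115.6 ± 5.29 CPM against 81.7 ± 2.07 CPM (adjusted p 2.22e-06 by edgeR). Counts over whole transcripts do not measure the loss of a floxed exon, so KO and WT stand below for the libraries so labelled. Nothing in the labels says that pools came from separate litters, so p-values measure the spread between these pools.

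The receptor genes differed in opposite directions. Pdgfra, the receptor gene of fibroblasts and mesenchymal progenitors, had 180.2, 162.9 and 166.3 CPM in KO libraries, against 112.9, 107.4 and 107.0 CPM in WT libraries. The lowest KO library stood well above the highest WT library. Means were 169.8 ± 9.16 CPM in KO and 109.1 ± 3.28 CPM in WT libraries (SD, n = 3 each), a 1.56-fold difference with a log2 fold change of 0.64 (SE 0.0466). It lay at the 93.8th percentile of the log2 fold changes of all genes tested. Pdgfrb, the receptor gene of mural cells, had 102.1, 84.2 and 85.4 CPM in KO libraries, against 104.7, 112.5 and 108.3 CPM in WT libraries. KO replicate 1 came close to the lowest WT library, and the other KO libraries lay clearly below. Means were 90.6 ± 10.002 CPM and 108.5 ± 3.91 CPM (SD, n = 3 each), with a log2 fold change of -0.25 (SE 0.0671) at the 21.1st percentile of all genes. The difference in Pdgfrb depended on the libraries used, with a log2 fold change of -0.41 without the 3 libraries near 0 of Y-linked genes or Xist.

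**Figure D1:**
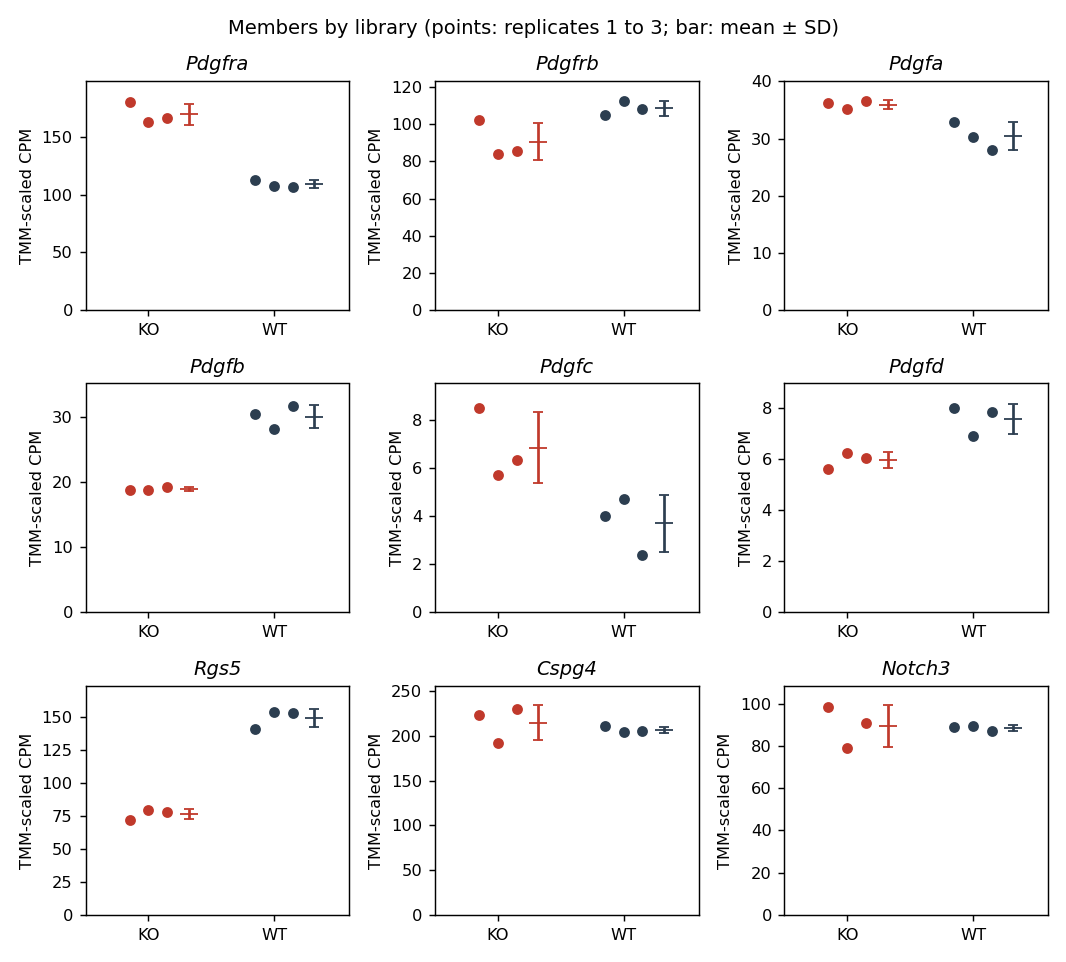
Each panel plots the TMM-scaled CPM (vertical axis, from 0) of 1 of the 9 genes, with 1 point per library in replicate order and the mean ± SD beside the points, KO in red on the left and WT in dark blue on the right. KO and WT points are apart for every gene except Cspg4 and Notch3, and for Pdgfrb KO replicate 1, at 102.1 CPM, lies just under the lowest WT library, at 104.7 CPM.

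On the RPKM scale of the deposited table the Pdgfrb groups overlapped, with 7.87, 5.94 and 6.23 RPKM in KO libraries, against 6.73, 7.57 and 7.27 RPKM in WT libraries. KO replicate 1 was then the highest of all 6 libraries. RPKM, reads per kilobase of transcript scaled to library size, was computed by the authors in a way that moved the median log2 ratio of all genes to 0.16, against 0.01 in the TMM-scaled fit. Relative to that median the RPKM log2 ratio was -0.26 for Pdgfrb and 0.63 for Pdgfra. Within each library the ratio of Pdgfra to Pdgfrb, both per kilobase of transcript, does not depend on the scaling. It was 1.52, 1.64 and 1.64 in KO libraries, against 0.927, 0.802 and 0.845 in WT libraries. Every KO library thus held more Pdgfra than Pdgfrb RNA per length, and every WT library held less.

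Both receptor genes are annotated with several transcripts. Pdgfra lies on chromosome 5 at 75152251 to 75198206 (mm10, plus strand) and Pdgfrb on chromosome 18 at 61045150 to 61085067 (plus strand). Pdgfra counts were shared out mainly between NM_011058, which begins at 75152251, the start whose upstream sequence is printed above, and NM_001083316, which begins downstream at 75156166. NM_001083316 took 50.7%, 57.1% and 56.0% of the Pdgfra counts in KO libraries, against 52.4%, 49.4% and 50.6% in WT libraries. KO replicate 1 lay within the WT range, so the groups overlapped, and both main transcripts were higher in KO libraries in RPKM. For Pdgfrb, NM_001146268 took 39.7%, 49.4% and 35.6% of the counts in KO libraries, against 43.6%, 37.6% and 37.5% in WT libraries, again with overlap. Reads that fit several transcripts were split by estimation, so these shares carry more error than the gene sums.

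The ligand genes divided in the same way, with Pdgfa and Pdgfc higher and Pdgfb and Pdgfd lower in KO libraries. Pdgfb, the endothelial ligand gene that recruits pericytes, had 18.8, 18.7 and 19.3 CPM in KO libraries, against 30.3, 28.1 and 31.6 CPM in WT libraries. The KO libraries lay within 1 CPM of each other and far below the WT libraries. The log2 fold change was -0.67 (SE 0.0655), at the 6.35th percentile of all genes, with WT 1.59-fold above KO. Pdgfa, the ligand gene with the highest level per length, had 36.1, 35.1 and 36.5 CPM in KO libraries, against 32.9, 30.3 and 28.0 CPM in WT libraries. The groups did not overlap, but the gap between them was smaller than the range of the WT libraries, and the log2 fold change was 0.24 (SE 0.0652).

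Pdgfc and Pdgfd, whose proteins carry a CUB domain that must be cut off by proteases before the receptor is bound, were the least abundant of the 9 genes. Pdgfc had 8.50, 5.69 and 6.33 CPM in KO libraries, against 3.999, 4.72 and 2.39 CPM in WT libraries. The lowest KO library, from 85 counts, and the highest WT library, from 60 counts, were close. The log2 fold change of 0.95 (SE 0.217) was the largest of the 9 in the upward direction and also had the largest error, and it was 0.36 without the 3 libraries near 0 of Y-linked genes or Xist. Pdgfd had 5.63, 6.23 and 6.03 CPM in KO libraries, against 7.998, 6.92 and 7.85 CPM in WT libraries. The groups were apart by less than the range of the WT libraries. The log2 fold change was -0.37 (SE 0.113), and -0.18 without the same 3 libraries.

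Taking the 4 ligand genes per length, Pdgfa RNA made up 75.1 ± 0.289% of their sum in KO libraries, against 65.8 ± 1.98% in WT libraries (SD, n = 3 each). Pdgfb made up 13.7 ± 0.197% in KO libraries, against 22.6 ± 1.97% in WT libraries. The ratio of Pdgfa to Pdgfb was 5.56, 5.43 and 5.48 in KO libraries, against 3.13, 3.12 and 2.56 in WT libraries. The ligand transcripts of KO ventricles thus held a larger share of Pdgfa and a smaller share of Pdgfb. Pdgfa lies on chromosome 5 at 138976972 to 138994953 (minus strand), Pdgfb on chromosome 15 at 79995876 to 80014808 (minus strand), Pdgfc on chromosome 3 at 81036416 to 81214031 (plus strand) and Pdgfd on chromosome 9 at 6168612 to 6377519 (plus strand), all in mm10. GENCODE places genes on the opposite strand within Pdgfb (Gm41361), Pdgfc (Gm16000), Pdgfd (Ddi1), Pdgfra (Gm42802) and Notch3 (Gm17276), and since no source used here says whether counting kept to the strand, such pairs cannot be told apart.

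**Figure D2:**
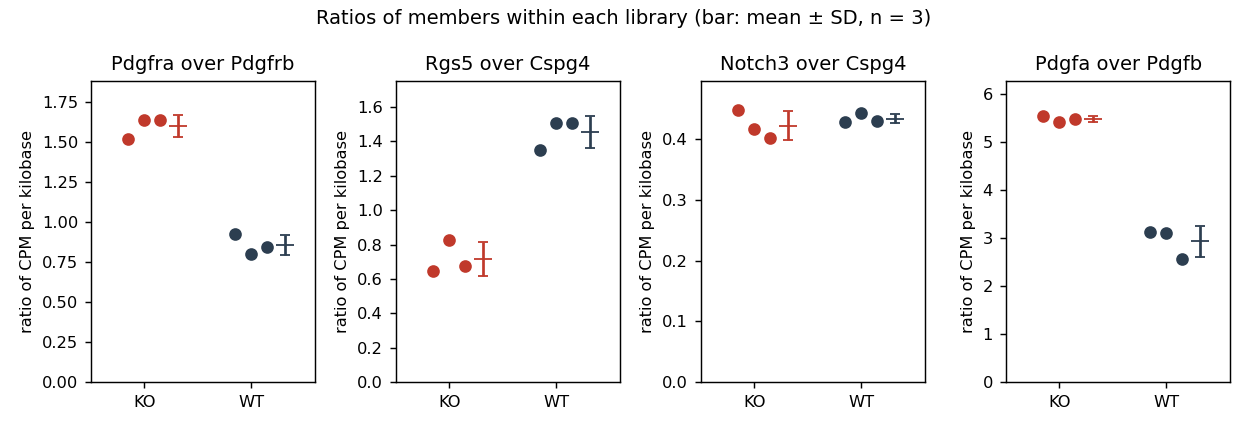
Each panel plots a ratio of 2 of the 9 genes within a library, both in CPM per kilobase of transcript (vertical axis, from 0), with 1 point per library and the mean ± SD (n = 3) beside them, KO in red on the left and WT in dark blue on the right. The ratio of Pdgfra to Pdgfrb is above 1 in every KO library and below 1 in every WT library, the ratio of Rgs5 to Cspg4 is above 1 in WT libraries alone, and the ratio of Notch3 to Cspg4 overlaps between the groups.

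The 3 pericyte-associated genes besides Pdgfrb did not move as a unit. Rgs5, which speeds the shut-off of G protein signals in mural cells, had 72.1, 79.8 and 78.3 CPM in KO libraries, against 141.5, 154.4 and 153.2 CPM in WT libraries. The highest KO library lay far below the lowest WT library. Means were 76.7 ± 4.11 CPM and 149.7 ± 7.11 CPM (SD, n = 3 each), with WT 1.96-fold above KO and a log2 fold change of -0.97 (SE 0.0512), at the 3.49th percentile of all genes. NM_009063 carried 99.7% of the Rgs5 counts in KO libraries and 99.5% in WT libraries, so the difference lay in 1 transcript. Rgs5 is on chromosome 1 at 169655501 to 169695813 (mm10, plus strand), with no other annotated gene across it.

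Cspg4 and Notch3 differed between the groups by less than the spread between KO libraries. Cspg4, whose NG2 proteoglycan is shared by pericytes and other immature cells, had 222.7, 192.3 and 229.4 CPM in KO libraries, against 210.6, 204.6 and 205.3 CPM in WT libraries. KO replicate 2 was the lowest and KO replicate 3 the highest of all 6 libraries. The log2 fold change was 0.06 (SE 0.0563). Notch3, the Notch receptor gene needed for the maturation of arterial smooth muscle, had 98.5, 79.0 and 91.1 CPM in KO libraries, against 89.1, 89.4 and 87.1 CPM in WT libraries. The KO libraries again spanned the whole WT range. Its log2 fold change was 0.02 (SE 0.0666), -0.05 without KO replicate 1 and -0.07 without the 3 libraries near 0 of Y-linked genes or Xist. Cspg4 lies on chromosome 9 at 56865104 to 56899870 (plus strand) and Notch3 on chromosome 17 at 32120893 to 32166852 (minus strand) of mm10.

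Rgs5 and Cspg4 therefore parted. Their ratio per length was 0.648, 0.828 and 0.673 in KO libraries, against 1.35, 1.51 and 1.51 in WT libraries, whereas the ratio of Notch3 to Cspg4 was 0.422 ± 0.0236 in KO and 0.434 ± 0.00763 in WT libraries (SD, n = 3 each). Rgs5 was also lower relative to Pdgfrb, with a ratio of 1.15 ± 0.171 in KO libraries against 1.86 ± 0.0488 in WT libraries. In whole ventricles, fewer cells of a type and less RNA of a gene per cell cannot be told apart. The lower level of Pdgfrb in KO libraries was thus accompanied by a lower level of Rgs5, while the groups overlapped for Cspg4 and Notch3.

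By edgeR's quasi-likelihood test over all genes, 7 of the 9 genes were past an adjusted p of 0.05, 3 of them higher and 4 lower in KO libraries, where 44.4% of all genes tested were past it, 22.4% higher and 22.0% lower. The groups did not overlap for the same number, 7 of 9, where they did not for 53.7% of all genes, 26.8% higher and 26.9% lower. The genes were chosen on this contrast, so neither count is evidence about them. Without the 3 libraries near 0 of Y-linked genes or Xist, which leaves 1 WT library, log2 fold changes were 0.62 for Pdgfra, 0.24 for Pdgfa and 0.36 for Pdgfc. They were then -0.41 for Pdgfrb, -0.56 for Pdgfb, -0.18 for Pdgfd and -0.97 for Rgs5, with 0.05 for Cspg4 and -0.07 for Notch3.

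Read per length, the order of the 9 genes changed at its upper end. In KO libraries Pdgfa came first, at 35.3 ± 0.727 CPM per kilobase of transcript, followed by Cspg4 at 26.7 ± 2.46, Pdgfra at 26.7 ± 1.75, Rgs5 at 19.0 ± 0.936 and Pdgfrb at 16.7 ± 1.85 (SD, n = 3). Cspg4 could not be separated from Pdgfra, nor Rgs5 from Pdgfrb, since their libraries overlapped. In WT libraries Rgs5 came first, at 37.4 ± 1.76 CPM per kilobase, followed by Pdgfa at 29.8 ± 2.40, Cspg4 at 25.7 ± 0.409, Pdgfrb at 20.1 ± 0.724 and Pdgfra at 17.2 ± 0.668, with no overlap between neighbours. Rgs5 thus stood below Pdgfa, Cspg4 and Pdgfra in KO libraries and above all others in WT libraries. The lower end kept its order in both groups. Notch3 stood at 11.3 ± 1.24 CPM per kilobase in KO and 11.1 ± 0.155 in WT libraries, above Pdgfb at 6.43 ± 0.103 in KO and 10.2 ± 0.613 in WT libraries. Pdgfd followed at 3.32 ± 0.168 in KO and 4.23 ± 0.327 in WT libraries, and Pdgfc was last at 1.95 ± 0.418 in KO and 1.05 ± 0.339 in WT libraries.

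**Figure D3:**
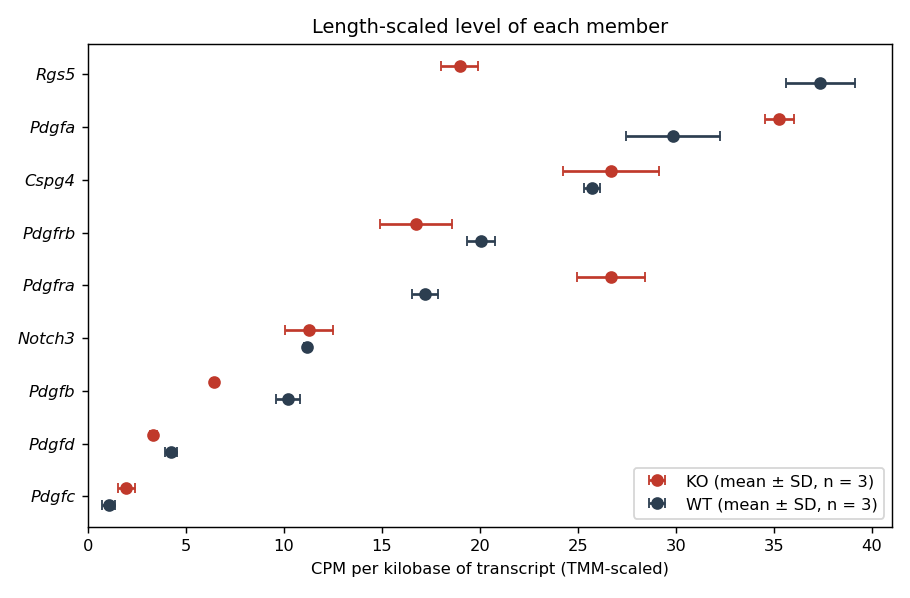
The plot gives the mean ± SD (n = 3 libraries) of each of the 9 genes in TMM-scaled CPM per kilobase of transcript (horizontal axis, from 0), with KO in red above WT in dark blue and genes from the highest to the lowest WT mean down the page. Rgs5 moves most, to 19.0 in KO against 37.4 in WT libraries, and Pdgfra and Pdgfrb change places.

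For 3 of the genes the profiles most like theirs over the 6 libraries were sought among all genes tested, by the root-mean-square difference of log2 CPM centred on each gene's mean. Pdgfra was most like Mn1, a transcriptional coregulator gene (0.0165), Colgalt1, which glycosylates collagen (0.0223), and Dusp4, a phosphatase gene of MAP kinases (0.0370). Dusp4 had 16.5, 14.5 and 15.4 CPM in KO libraries, against 11.0, 9.90 and 9.78 CPM in WT libraries. Pdgfrb was most like Slco5a1 (0.0279), the DNA repair gene Ercc6 (0.0375) and Hook1 (0.0385). Notch3 was most like Grik5 (0.0323), Zcchc7 (0.0324) and Ahdc1 (0.0325). None of the nearest profiles was that of another mural cell gene of the lists below. With 6 libraries, and many genes compared, a close profile is a description and no sign of a shared function.

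Other genes used as pericyte markers differed in both directions, whereas Rgs5 and Pdgfrb were lower in KO libraries and Cspg4 and Notch3 overlapped between the groups. Of 18, 8 fell and 6 rose at an adjusted p under 0.05 by edgeR, with a median log2 fold change of -0.08, against 0.01 over all genes, and 22.0% of all genes lower and 22.4% higher. Kcnj8, the pore subunit gene of the ATP-sensitive potassium channel of mural cells, had 10.9, 13.7 and 11.4 CPM in KO libraries, against 22.8, 21.3 and 20.8 CPM in WT libraries (log2 fold change -0.88, adjusted p 5.75e-06 by edgeR). Every KO library lay far below every WT library. Its partner Abcc9, which cardiomyocytes express as well, fell by 0.46 (adjusted p 0.000237 by edgeR), with a log2 fold change of -0.25 (adjusted p 0.0112 by edgeR) without the 3 libraries near 0 of Y-linked genes or Xist. The low-level genes Vtn, which encodes vitronectin, and Higd1b fell as well. Vtn had 6, 2 and 4 counts in KO libraries, against 19, 17 and 32 counts in WT libraries (log2 fold change -2.98, SE 0.366, adjusted p 2.27e-05 by edgeR), so that its fold is poorly fixed. Higd1b had 1.16 ± 0.134 CPM in KO libraries and 3.03 ± 0.119 CPM in WT libraries (SD, n = 3 each, adjusted p 7.15e-05 by edgeR).

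The markers that rose included Ndufa4l2, a paralog of a respiratory chain subunit gene known to be induced by low oxygen. It had 47.7, 40.5 and 56.8 CPM in KO libraries, against 17.4, 14.5 and 15.6 CPM in WT libraries, with a log2 fold change of 1.61 (adjusted p 1.47e-07 by edgeR). Gucy1b3, a subunit gene of the nitric oxide receptor soluble guanylate cyclase, had 91.5 ± 2.55 CPM in KO libraries and 63.9 ± 1.51 CPM in WT libraries (SD, n = 3 each, adjusted p 1.12e-06 by edgeR). Its partner Gucy1a3, the adhesion molecule gene Mcam, the epicardial and mural transcription factor gene Tbx18 and Cox4i2 were the others past the threshold upward, with log2 fold changes of 0.22 to 0.38. Steap4, Tbx2 and Ano1 were also past it downward, with log2 fold changes of -1.24 to -0.28. Anpep, Foxs1, Ebf1 and Cd248 did not pass, with adjusted p of 0.0754 to 0.568 by edgeR. The summed level of the 18 genes was 1087 to 1109 CPM in KO libraries, against 1074 to 1120 CPM in WT libraries, and so overlapped. Abcc9 made up 272 to 341 CPM of this sum in KO libraries and 394 to 444 CPM in WT libraries. The other 17 genes, a division made after the values were seen, summed to 766 to 819 CPM in KO libraries, against 671 to 680 CPM in WT libraries, without overlap. Mcam alone had means of 331 CPM in KO and 285 CPM in WT libraries, so abundant genes weigh most in this sum. Of the full 18 genes 8 fell and 6 rose, as given above. Without the 3 libraries near 0 of Y-linked genes or Xist, 5 fell and 4 rose. Past the threshold no more by edgeR were then Steap4 (log2 fold change -0.71, adjusted p 0.0687), Tbx2 (-0.54, adjusted p 0.0795), Ano1 (-0.41, adjusted p 0.0658), Cox4i2 (0.16, adjusted p 0.674) and Gucy1a3 (0.13, adjusted p 0.333).

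**Figure D4:**
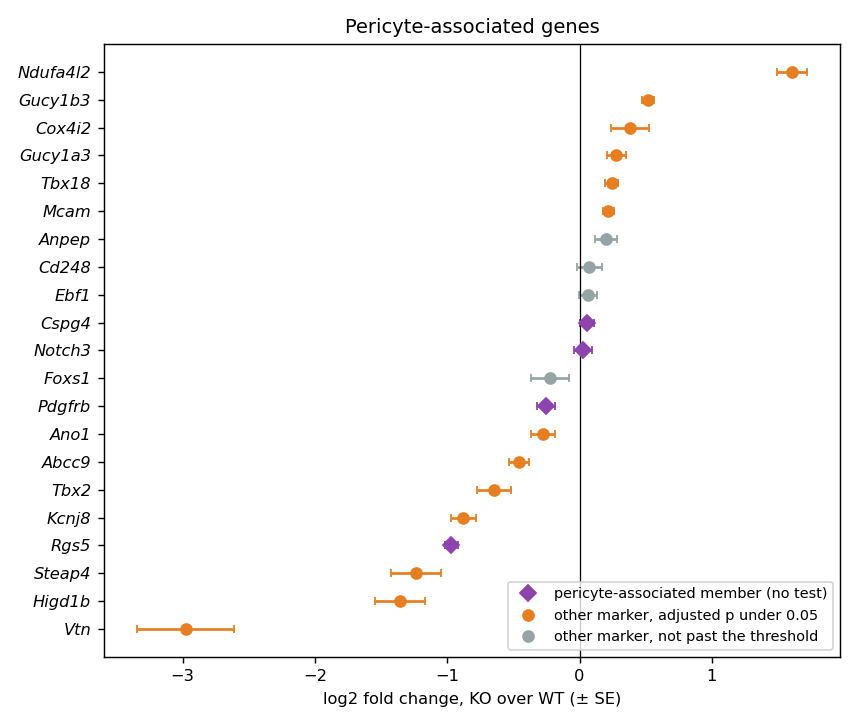
The plot gives log2 fold changes of KO over WT ± SE (horizontal axis) for the 4 pericyte-associated genes of the 9 as purple diamonds, which carry no test, and for 17 of the 18 other pericyte markers as circles, orange where past an adjusted p of 0.05 by edgeR and grey where not. The genes run from Ndufa4l2 at 1.61 to Vtn at -2.98, with Cspg4 and Notch3 near 0 and Rgs5 at -0.97 beside Kcnj8 at -0.88.

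Genes that bring PDGF ligands to their receptors changed in 7 of 10 cases, 5 upward and 2 downward, with a median log2 fold change of 0.26. Over all genes tested 22.4% were higher and 22.0% lower, with a median of 0.01. The counts of each list below stand beside these shares. Nrp1 and Nrp2, the neuropilin genes, which encode co-receptors of vascular endothelial growth factor (VEGF) and, in the case of NRP1, of PDGF, fell by 0.30 (adjusted p 4.52e-05) and by 0.55 (adjusted p 1.42e-06), both by edgeR. Nrp2 had 53.8 ± 1.99 CPM in KO libraries and 78.8 ± 2.47 CPM in WT libraries (SD, n = 3 each). Sparc, a matrix protein gene whose product binds PDGF-B, rose instead, with a log2 fold change of 0.51 (adjusted p 2.77e-06 by edgeR). Lrp1, a co-receptor gene of PDGFRβ, had 445, 348 and 385 CPM in KO libraries, against 238, 245 and 252 CPM in WT libraries, without overlap (log2 fold change 0.68, adjusted p 5.87e-06 by edgeR). The proprotein convertase genes Pcsk6 and Pcsk5, of the enzyme family that cuts PDGF-A and PDGF-B precursors, rose by 0.95 and 0.55 (adjusted p 1.66e-05 and 4.61e-05 by edgeR).

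Downstream of the receptors, 9 of 33 genes of signal transduction fell and 8 rose, with a median log2 fold change of 0.00. Over all genes tested 22.0% fell and 22.4% rose. Plcg1, the phospholipase gene whose product docks on activated receptors, fell by 0.32 (adjusted p 0.000259 by edgeR), while Stat5b rose by 0.35 (adjusted p 0.000835 by edgeR). Without the 3 libraries near 0 of Y-linked genes or Xist, 2 of the 33 fell and 5 rose. Among 14 genes that restrain receptor signals 7 rose and 2 fell, the median being 0.19, and 1 fell without the 3 libraries. Spred1, an inhibitor gene of the RAS and MAP kinase pathway, had 163, 167 and 179 CPM in KO libraries, against 104, 103 and 107 CPM in WT libraries (log2 fold change 0.70, adjusted p 5.51e-08 by edgeR). Ptprj, a phosphatase gene whose product acts on PDGFRβ, had 40.3 ± 1.32 CPM in KO libraries and 23.5 ± 1.18 CPM in WT libraries (SD, n = 3 each, adjusted p 4.29e-07 by edgeR). Cav1, of the caveolae, fell by 0.39 (adjusted p 7.98e-06 by edgeR). The list of 11 tested immediate early genes, which growth factors such as PDGF switch on, had 3 higher and 1 lower, with a median of -0.08. Fos, at 7.47 ± 1.54 CPM in KO libraries and 3.48 ± 0.866 CPM in WT libraries (SD, n = 3 each, adjusted p 0.000398 by edgeR), and Nr4a1, with a log2 fold change of 0.67 (adjusted p 0.000151 by edgeR), were among the higher ones. The count of lower ones was 3 without KO replicate 3 and without WT replicate 1, and 0 without the 3 libraries by edgeR, with 1 at an unadjusted p under 0.05.

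Relatives of the 9 genes were divided as well, where 22.0% of all genes tested fell and 22.4% rose. Of 13 tested genes of VEGF ligands and of the receptor kinases most like the PDGF receptors, 6 fell and 3 rose, the median log2 fold change being -0.25. Vegfb fell by 0.84 (adjusted p 1.12e-06 by edgeR), with 21.8 ± 0.908 CPM in KO libraries and 38.6 ± 3.50 CPM in WT libraries (SD, n = 3 each), and Vegfa fell by 0.55 (adjusted p 8.27e-05 by edgeR). Vegfd rose by 1.18 (adjusted p 4.79e-05 by edgeR) at a low level, 6.02 ± 0.900 CPM in KO libraries and 2.70 ± 0.136 CPM in WT libraries (SD, n = 3 each). Of the R4 family, to which Rgs5 belongs, 4 of the 9 other genes listed could be tested. Rgs2 went against Rgs5, with 55.4, 60.0 and 62.7 CPM in KO libraries, against 20.0, 19.7 and 23.0 CPM in WT libraries (log2 fold change 1.496, adjusted p 4.36e-09 by edgeR), and Rgs3 rose by 0.32 (adjusted p 0.000166 by edgeR). Rgs4 fell by 0.77 (adjusted p 0.0209 by edgeR), a call lost without KO replicate 3, WT replicate 1 or WT replicate 2 and without the 3 libraries. It was joined by a further lower gene of this family without KO replicate 1.

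The Notch list, without Notch3, had 5 of 15 genes lower and 4 higher, with a median log2 fold change of -0.18. Over all genes tested 22.0% were lower and 22.4% higher. Notch2 rose by 0.34 (adjusted p 4.96e-05 by edgeR) with 234 ± 11.3 CPM in KO libraries and 185 ± 7.49 CPM in WT libraries (SD, n = 3 each). Nrarp and Hey2, which Notch signals switch on, fell by 0.47 (adjusted p 1.33e-05) and 0.30 (adjusted p 0.000205), both by edgeR. The count of lower genes was 3 by DESeq2, without WT replicate 1, without WT replicate 3 and without the 3 libraries near 0 of Y-linked genes or Xist, and that of higher ones 2 without KO replicate 1 and without the 3 libraries. Of 18 genes of other axes that bring mural cells to vessels, 6 rose and 4 fell, the median being 0.07. S1pr1, the endothelial receptor gene of sphingosine 1-phosphate, had 99.5, 106 and 99.3 CPM in KO libraries, against 155, 151 and 155 CPM in WT libraries (log2 fold change -0.60, adjusted p 1.20e-07 by edgeR). Tgfb2 rose by 0.75 (adjusted p 4.22e-07 by edgeR) and the endothelin gene Edn1 by 0.96 (adjusted p 0.000112 by edgeR). Without the 3 libraries 3 rose and 2 fell.

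Marker lists of the cells that make or receive PDGF differed between the groups as well. Their counts too stand beside 22.4% of all genes tested higher and 22.0% lower. Endothelial cells are the main source of PDGF-B, and 13 of 17 endothelial markers fell and 2 rose, with a median log2 fold change of -0.34. Kdr, the VEGF receptor gene, had 147, 154 and 158 CPM in KO libraries, against 210, 211 and 225 CPM in WT libraries, and fell by 0.50 (adjusted p 1.12e-06 by edgeR). Fabp4 fell by 0.61 and Aplnr by 0.77, while Emcn rose by 0.60 (adjusted p 9.18e-06, 1.29e-05 and 9.26e-06 by edgeR). The summed level of the 17 markers was 1365 to 1397 CPM in KO libraries, against 1617 to 1696 CPM in WT libraries. Without the 3 libraries 8 fell and 1 rose. The part of these markers in the lower Pdgfb was not tested. The 7 markers of endothelial tip cells, which also make Pdgfb, had 2 higher and 1 lower, with a summed level of 228 to 280 CPM in KO libraries, against 197 to 211 CPM in WT libraries. Unc5b, a netrin receptor gene, made up 163 to 214 CPM of it in KO libraries and 134 to 139 CPM in WT libraries, and the other 6 summed to 63.6 to 66.2 CPM in KO libraries, against 63.0 to 71.5 CPM in WT libraries, with overlap. The count of higher ones was 1 without KO replicate 2, WT replicate 2 or WT replicate 3, and that of lower ones 2 without KO replicate 1, with no filter on low counts, with robust dispersion and with the replicate block.

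Fibroblasts carry Pdgfra, and 12 of 13 fibroblast markers rose and none fell past the threshold. The median log2 fold change was 0.54, beside the 0.64 of Pdgfra. The remaining marker, Thy1, lay lower in KO libraries without passing (log2 fold change -0.33, adjusted p 0.107 by edgeR). Ddr2, a collagen receptor gene, had 66.3, 64.1 and 67.1 CPM in KO libraries, against 37.8, 44.5 and 38.0 CPM in WT libraries (log2 fold change 0.72, adjusted p 1.18e-06 by edgeR). Tcf21, a transcription factor gene of epicardium-derived fibroblasts, rose by 1.06 and Dcn, which encodes decorin, by 0.38 (adjusted p 5.72e-06 and 3.18e-06 by edgeR). The summed fibroblast level was 7746 to 8993 CPM in KO libraries, against 5537 to 5862 CPM in WT libraries, so the groups did not overlap. The part of these markers in the higher Pdgfra was not tested. Of 8 epicardial markers, from the layer that gives rise to fibroblasts and mural cells, 4 rose and none fell, with a summed level of 192 to 206 CPM in KO libraries, against 148 to 160 CPM in WT libraries. Krt19 rose by 1.40 and Wt1 by 0.53 (adjusted p 2.63e-08 and 1.29e-05 by edgeR).

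Smooth muscle cells share Pdgfrb and Notch3 with pericytes. Of 10 smooth muscle markers 4 rose and 2 fell, the median log2 fold change being 0.28. Acta2, the smooth muscle actin gene, which fetal cardiomyocytes and activated fibroblasts also express, had 2733, 2662 and 2829 CPM in KO libraries, against 833, 868 and 809 CPM in WT libraries (log2 fold change 1.71, adjusted p 7.38e-11 by edgeR). Cnn1 rose by 1.28 and Tagln by 1.44 (adjusted p 1.35e-08 and 1.29e-05 by edgeR), Tagln by 0.91 without the 3 libraries near 0 of Y-linked genes or Xist. The smooth muscle myosin gene Myh11, the marker of mature smooth muscle, had 20.7 ± 2.11 CPM in KO libraries and 20.8 ± 1.38 CPM in WT libraries (SD, n = 3 each, adjusted p 0.904 by edgeR). Mylk fell by 0.21 and Myocd by 0.18 (adjusted p 0.00778 and 0.00214 by edgeR).

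**Figure D5:**
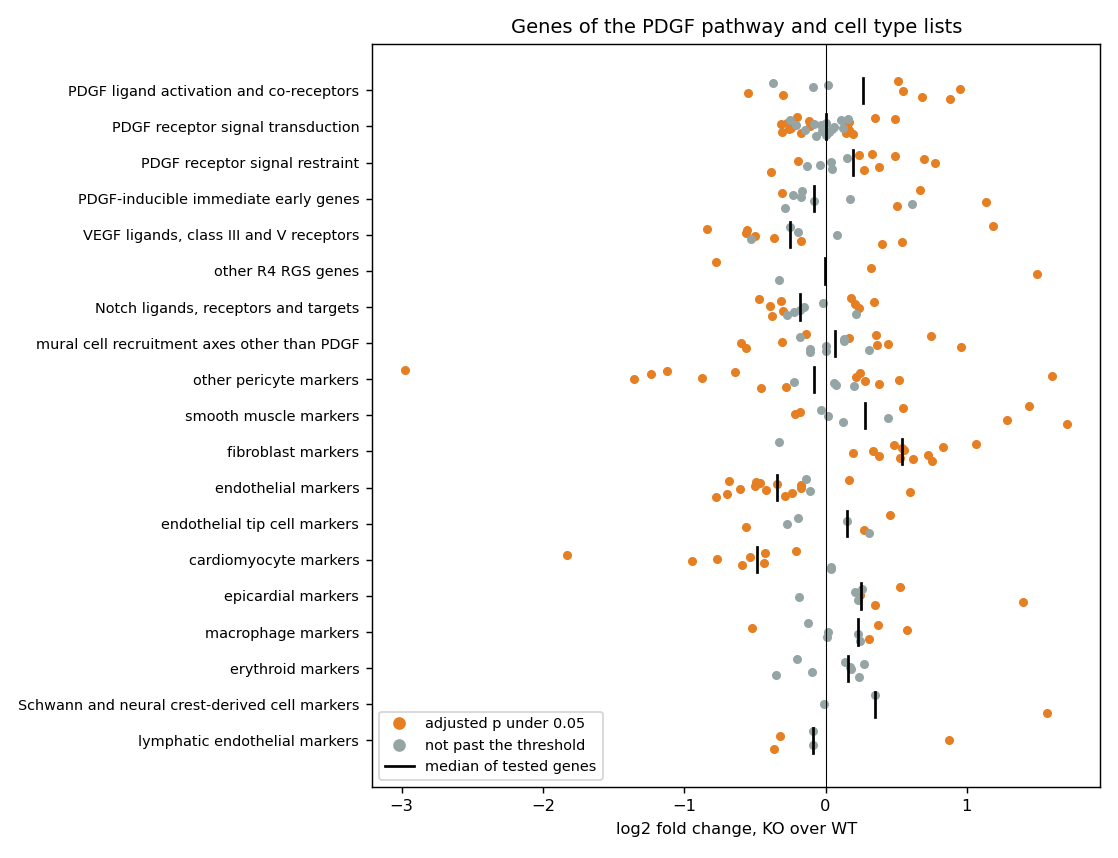
Each row plots the log2 fold changes of KO over WT (horizontal axis) of the tested genes of a list, with 1 point per gene, orange where past an adjusted p of 0.05 by edgeR and grey where not, and a black bar at the list's median. Fibroblast markers, except Thy1, lie to the right of 0, with a median of 0.54. Endothelial markers lie mostly to the left with a median of -0.34, and the other pericyte markers on both sides with a median of -0.08.

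Markers of the remaining cell types bound the sample. Cardiomyocytes, which make up most of the ventricle's mass and were the cells aimed at by Cre, had 8 of 10 markers lower and none higher, with a summed level of 97176 to 107716 CPM in KO libraries, against 121755 to 125106 CPM in WT libraries, so that the tissue label fits the libraries. Ttn made up most of this sum, with means of 80307 CPM in KO and 92705 CPM in WT libraries. All other levels are relative to a total that the fall in cardiomyocyte markers is part of. Of 9 macrophage markers 3 rose and 1 fell, and without the 3 libraries near 0 of Y-linked genes or Xist 0 passed by edgeR, with 2 higher and 1 lower at an unadjusted p under 0.05. Erythroid markers had 0 of 8 past the threshold by edgeR, DESeq2 and limma-voom, and 0 at an unadjusted p under 0.05 by edgeR, but 2 were lower without KO replicate 2. Their summed level was 567 to 1226 CPM in KO libraries, against 539 to 794 CPM in WT libraries. Of 8 markers of Schwann and neural crest-derived cells, some of which also express Cspg4, 3 could be tested and 1, Dbh, rose, while Th was at 0 counts in all KO libraries and had at most 1 count in a WT library. Of 5 lymphatic markers 1 rose and 2 fell. Where fibroblast, epicardial or cardiomyocyte markers had none past the threshold in a direction, the count in that direction was 0 by DESeq2 and limma-voom too, and 0 at an unadjusted p under 0.05 by edgeR. Without WT replicate 2, 1 epicardial marker was lower.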

How the data were processed

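Total RNA of both ventricles was sequenced as 3 KO and 3 WT libraries, grouped by the sample labels. Libraries were depleted of ribosomal RNA and made with a stranded total RNA kit, though an mRNA kit is named too, and read from 1 end, per the labels' protocols. TopHat2 2.0, Partek 6.6, DESeq and the mm10 build are named, without their roles, per the submitters' processing notes. The deposited table holds the authors' estimated counts per transcript, which need not be whole, and RPKM, for which the authors divided by transcript length and library reads. The authors also deposited read numbers and the percent of reads in exons, introns and between genes.

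Counts of 30031 transcripts were summed to 19245 symbols (58 transcripts whose symbols a spreadsheet had turned into dates were restored from accessions) and rounded. Taking each symbol in each library as a value, 94.5% of the sums were off a whole number by less than 0.01. Groups were compared by the quasi-likelihood test of edgeR 4.0.16 (TMM scaling, minimum count 10, total 15) in R 4.3.3. It was two-sided, p-values were adjusted by Benjamini and Hochberg's method over 14290 genes at a threshold of 0.05, and the script was checked on simulated data. The biological coefficient of variation was 5.58%. CPM per kilobase is RPKM rescaled from the authors' library totals to TMM-scaled ones. Replicates differed by more than counting noise, with chi-square per degree of freedom of 2.64 to 10.2. The floor of 3 counts covers counting error alone, as reads without molecular identifiers can be PCR copies. Promoter sequences are RefSeq's on GRCm38.p6 and overlapping genes GENCODE M21's.

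The genes, lists and rule for named genes were chosen with earlier results of these data known. The rule names the 9 genes and, for Pdgfra, Pdgfrb and Notch3, the 3 nearest profiles. Per list it names up to 4 genes past the threshold in the majority direction and up to 2 in the other, by adjusted p. Where none passed it names the 2 most abundant. The text names fewer, and some list genes are counted but not reported singly here. Abcc9, Gucy1a3, Mcam, Cox4i2, Steap4, Tbx2, Ano1, Anpep, Foxs1, Ebf1, Cd248, Thy1, Myh11, Ttn and Th were named after their values were seen. Also run were DESeq2 1.42.0, limma-voom (limma 3.58.1), other scalings, other filters, robust dispersion, a replicate block, leaving out each library or the 3 libraries near 0 of Y-linked genes or Xist, and RPKM.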

Additional observations from a re-analysis of the deposited data

How the results depend on the processing

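The direction of 8 of the 9 genes held in all 16 alternatives run, and that of Notch3 in 14, with log2 fold changes of -0.07 to 0.17. Pdgfra ran from 0.60 to 0.79, the highest value being that of the deposited RPKM, and from 0.60 to 0.67 when each library was left out in turn. Pdgfrb ran from -0.35 to -0.21 when each library was left out, with -0.35 without KO replicate 1. It was -0.41 without the 3 libraries near 0 of Y-linked genes or Xist and -0.11 on RPKM, whose median over all genes was shifted to 0.16. Of the 9 genes, 2 to 4 were called higher and 3 to 4 lower when each library was left out, and 1 higher without the 3 libraries. Over all genes 2636 to 3060 were higher and 2683 to 3052 lower when each library was left out, and 1787 and 1858 without the 3 libraries, of 3198 and 3150. The PDGF pathway lists had 38 genes higher and 30 lower, 34 to 40 and 24 to 33 when each library was left out, and 29 and 15 without the 3 libraries. The cell type lists had 34 and 35, with 31 to 33 and 33 to 36 when each library was left out. For 86 genes, the tested list genes named by the rule together with Esrra and Esrrg, none reversed. Of these, 20 lost their call in at least 1 alternative, 42 times in all. The outcome was unchanged 1248 times, which includes genes past the threshold in neither fit. In RPKM, NM_001083316 made up 49.1% of Pdgfra in WT libraries, and NM_009063 98.5% of Rgs5 in KO and 97.3% in WT libraries. DESeq2 called 5262 genes. The cause of these shifts was not tested.

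With the replicate number as a block 6410 genes were called, against 6348 without it, and of the 9 genes 3 were higher and 4 lower in both. Deviations of same-numbered KO and WT libraries from their group means correlated at -0.00552, -0.0152 and 0.104, so the numbers do not pair the libraries, and not every library correlated best with its own number. Depth limits Pdgfc, Pdgfd, Vtn and Higd1b most.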
